A study of Rattus norvegicus with 24 samples.

Results

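A total of 9 genes of iron and haem handling was followed in the kidney of 24 male PKD/Mhm (Cy/+) rats. The genes were selected by name and function, with earlier results of these data known, and 9 of 9 were found among the 17334 gene identifiers in the count tables. They were Tf (Entrez gene 24825), Tfrc (64678) and Slc11a2 (25715) of iron uptake, and Fth1 (25319) and Ftl1 (29292) of iron storage. Slc40a1 (170840) and Cp (24268) stood for iron export, Hp (24464) for haemoglobin scavenging, and Ireb2 (64831) for an iron regulatory protein. A filter on low counts left 12778 genes for testing, and 9 of the 9 passed it.

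Iron travels in plasma bound to transferrin, enters cells through the transferrin receptor, leaves the endosome through divalent metal transporters, is kept in ferritin shells of heavy and light chains, and leaves the cell through ferroportin with the help of a copper ferroxidase. In the kidney, iron and iron-binding proteins filtered at the glomerulus are taken back by the tubule, and haptoglobin and ceruloplasmin are classical acute phase proteins of the liver. Much of the control of these genes acts after transcription, since iron regulatory proteins bind elements in the ferritin, transferrin receptor and ferroportin mRNAs, so an mRNA level need not follow the amount of protein.

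The animals carried the Cy allele in heterozygous form. This is a spontaneous mutation of a Sprague Dawley colony that causes cystic kidneys, and non-cystic animals were not analysed here. RNA was sequenced from the left kidney at the age of 8 months, with 6 animals in each of 4 groups. Ctrl animals carried no treatment in the labels, and the paper calls them untreated. Whether they received a control injection is not given in the sources used here. Human skin-derived ABCB5+ stromal cells were given into the abdominal cavity (i.p. ABCB5+) or into a vein (i.v. ABCB5+), each month for 6 months. The CoCM group received medium conditioned by ABCB5+ cells in co-culture with stimulated macrophages, and the sources differ on whether it was given i.p. or i.v. The 3 treatment groups were compared with the same 6 Ctrl animals, so these comparisons are not independent of each other. Ctrl animals bore the numbers 1 to 24 and treated animals 26 to 43, so treatment and order of numbering cannot be told apart.

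Total counts per animal ranged from 9304601 to 14125442. On the first principal component of all genes, which held 56.3% of the variance, 4 treated animals stood apart with scores from 80.8 to 97.4, against −53.0 to 11.5 in the other 20. These were CoCM animal 39, i.p. ABCB5+ animal 38, and i.v. ABCB5+ animals 36 and 37. Their summed levels of macrophage markers were 182 to 540 TPM, against 1442 to 3611 TPM in the other 20, and 9 of 9 of these markers lay below the range of the other 20. Injured tubule markers summed to 546 to 838 TPM against 6892 to 14501 TPM, with 7 of 9 markers below that range, and fibroblast markers to 58.3 to 210 TPM against 322 to 1314 TPM, with 3 of 6 below. Proximal tubule markers summed to 3588 to 7316 TPM in the 4 animals, above the 768 to 3439 TPM of the others, with 2 of the 8 markers above the range of the other 20 in each of the 4. In whole-kidney RNA, fewer cells of a type and less RNA per cell cannot be told apart. The fold changes of the members against Ctrl are therefore given with and without these 4 animals.

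Per transcript length, the members spanned a wide range of TPM. Fth1 was highest, with a median of 7854 TPM over the 24 animals, followed by Ftl1 at 5904 TPM, and Fth1 exceeded Ftl1 in 24 of 24 animals. The TPM ratio of Fth1 to Ftl1 had a median of 1.32 and ranged from 1.05 to 1.62. Cp followed at a median of 183 TPM and Tf at 147 TPM. The order of this pair was not fixed, as Cp was the higher of the pair in only 11 of 24 animals. Slc11a2 had a median of 64.4 TPM, Slc40a1 of 43.3 TPM, Tfrc of 22.1 TPM and Ireb2 of 12.7 TPM. Slc11a2 exceeded Slc40a1 in 23 of 24 animals, Slc40a1 exceeded Tfrc in 21 of 24 and Tfrc exceeded Ireb2 in 23 of 24, so that each of these neighbours overlapped in range. Hp was lowest at 2.81 TPM, below Ireb2 in 24 of 24 animals. Copies of the ferritin genes are frequent in the rat genome, with 22 further Ftl1 loci and 6 further Fth1 loci in the RefSeq gene table, of which the count tables held none. Reads from such copies could not be separated, so the levels of Fth1 and Ftl1 are uncertain to that extent.

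Between groups, none of the 9 members passed an adjusted p-value of 0.05 (edgeR quasi-likelihood test, Benjamini-Hochberg over 12778 genes) in any comparison. The share of all genes called was 0.00783% in CoCM against Ctrl, which is 1 gene, and 0% in i.p. ABCB5+ against Ctrl, i.v. ABCB5+ against Ctrl, i.p. against i.v. ABCB5+ and the test over the 4 groups. At an unadjusted p-value under 0.05, 1 member (Slc40a1) was found in CoCM, where 11.9% of all genes were, and 2 members (Slc40a1 and Slc11a2) in i.v. ABCB5+, where 5.78% of all genes were. In i.p. ABCB5+, where 1.77% of all genes were, and between the routes, where 2.14% were, it was 0 members. With DESeq2, with limma and in each of the other alternatives, the count of members called was also 0. The smallest adjusted p-value of a member was 0.379, for Slc40a1 in CoCM. Between the routes, the log2 difference of i.p. minus i.v. ABCB5+ ranged from −0.24 for Ftl1 to 0.25 for Tf. The median log2 fold change over the 9 members was 0.13 in CoCM, −0.02 with i.p. and 0.10 with i.v. ABCB5+, beside medians over all genes of 0.01, 0.00 and 0.01.

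**Figure D1:**
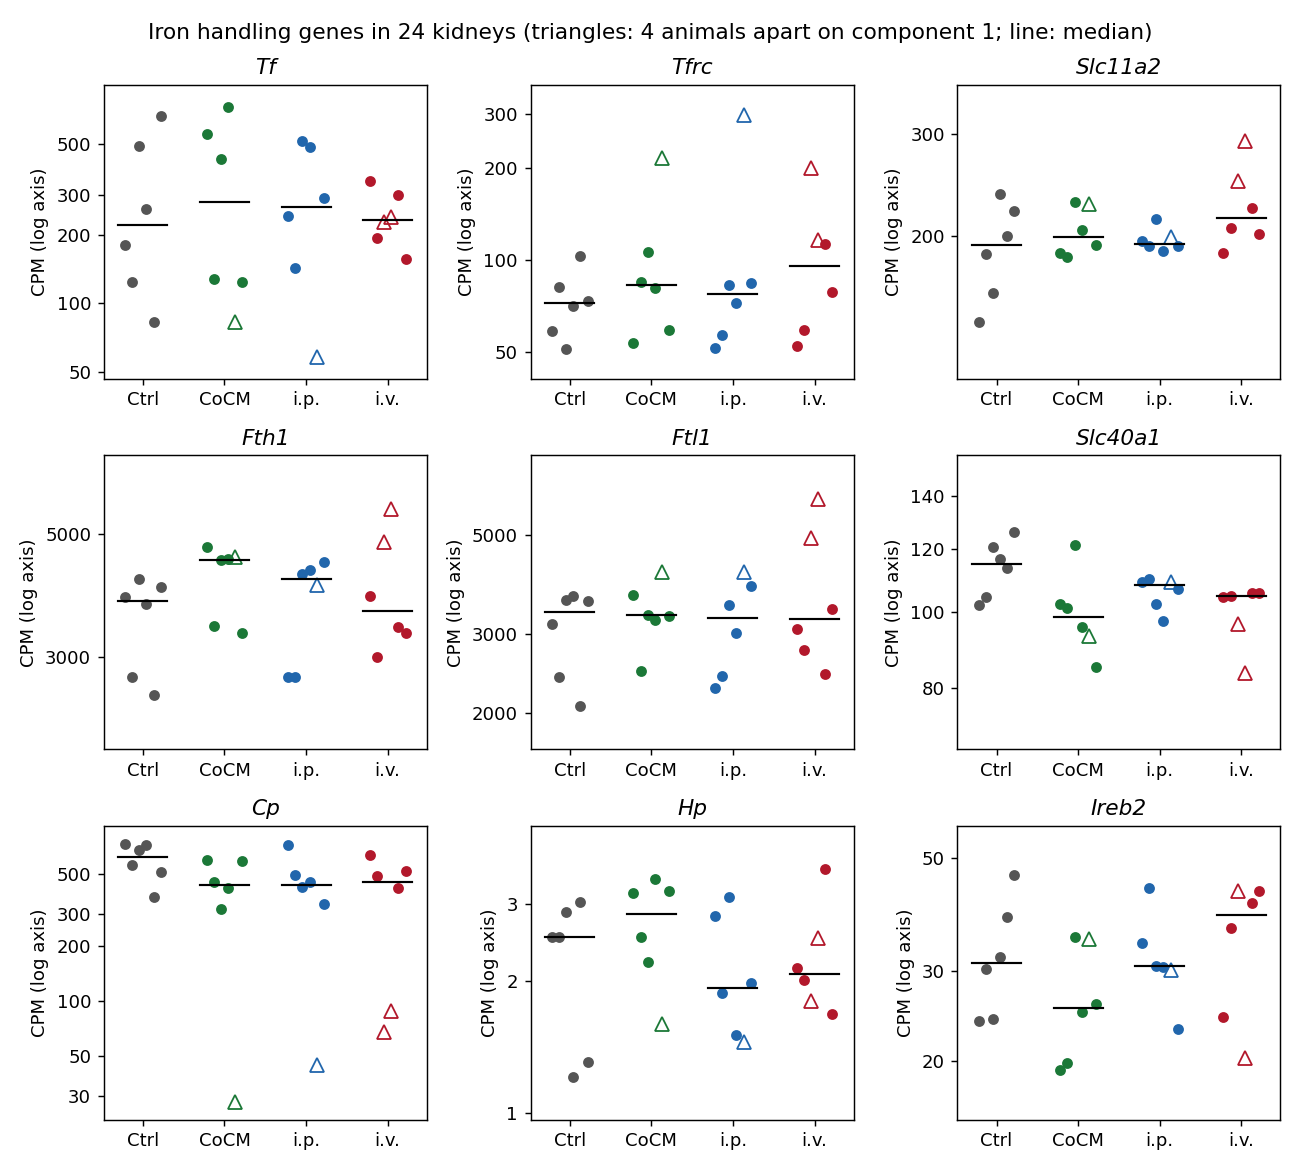
Each panel plots 1 gene in CPM (counts relative to library size, log axis) by group, with a point for each of the 24 animals and a line at the group median; open triangles are the 4 animals apart on the first principal component. Cp is at 27.8 to 87.4 CPM in these 4 animals and at 321 to 733 CPM in the other 20, whereas the groups overlap for every gene.

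Tf encodes transferrin, the iron carrier of plasma. Its levels were 82.8 CPM at the lowest, 221 CPM at the median and 661 CPM at the highest in Ctrl, and 82.9, 279 and 727 CPM in CoCM. They were 58.5, 265 and 514 CPM in i.p. ABCB5+ and 157, 233 and 344 CPM in i.v. ABCB5+. The spread within Ctrl alone was thus 7.98-fold, and the 4 groups overlapped over most of their ranges. The log2 fold change against Ctrl was 0.18 ± 0.56 (SE) in CoCM, −0.05 ± 0.56 with i.p. and −0.30 ± 0.56 with i.v. ABCB5+, with adjusted p-values of 0.892, 0.995 and 0.844 in edgeR. Without the 4 animals apart it was 0.37, 0.16 and −0.28. Beside this, hepatocyte markers summed to 0.187 to 4.80 TPM per animal and Tf was at 30.1 to 448 TPM. The part of RNA from other cells in the level of Tf was not tested.

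Tfrc encodes the transferrin receptor. In Ctrl it was 51.1 CPM at the lowest, 72.2 CPM at the median and 103 CPM at the highest. The corresponding values were 53.5, 82.9 and 215 CPM in CoCM, 51.4, 77.6 and 299 CPM in i.p. ABCB5+ and 52.1, 95.9 and 200 CPM in i.v. ABCB5+. Group medians lay close together, and the high values were those of the animals apart, with 215 CPM in CoCM animal 39, 299 CPM in i.p. ABCB5+ animal 38, and 200 and 116 CPM in i.v. ABCB5+ animals 36 and 37. The highest value among the other 20 was 113 CPM. Accordingly, the log2 fold change of 0.45 ± 0.42 in CoCM, 0.56 ± 0.42 with i.p. and 0.50 ± 0.42 with i.v. ABCB5+ became 0.06, −0.07 and 0.04 without these 4 animals (adjusted p with all animals 0.615, 0.978 and 0.693, edgeR).

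Slc11a2 encodes divalent metal transporter DMT1, which moves iron out of the endosome and, at the tubular brush border, into the cell. Its isoforms share a gene row in the tables and were not separated. In Ctrl it ranged from 142 to 236 CPM with a median of 193 CPM, in CoCM from 184 to 229 CPM with a median of 199 CPM, and in i.p. ABCB5+ from 188 to 213 CPM with a median of 194 CPM. In i.v. ABCB5+ it ranged from 186 to 291 CPM with a median of 215 CPM. Only the 2 i.v. animals that stood apart, at 249 and 291 CPM, exceeded every Ctrl animal. The log2 fold change was 0.10 in CoCM and 0.05 with i.p. ABCB5+, and 0.05 in both without the animals apart. In i.v. ABCB5+ it was 0.25 ± 0.11 (unadjusted p = 0.0413, adjusted p = 0.673, edgeR), a two-sided exact permutation test gave p = 0.123, and without the animals apart the change was 0.10 ± 0.11. Against i.v. ABCB5+, the i.p. group was lower by a log2 difference of −0.20 ± 0.11 with 6 of 6 animals below the i.v. mean (adjusted p = 0.9999, edgeR), and this became −0.05 ± 0.12 without the animals apart.

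Fth1 and Ftl1 encode the heavy chain of ferritin, which oxidises iron, and the light chain, which supports its deposition. Fth1 was 2567, 3796 and 4157 CPM in Ctrl (lowest, median and highest), 3324, 4498 and 4746 CPM in CoCM, 2763, 4143 and 4446 CPM in i.p. ABCB5+ and 3000, 3640 and 5533 CPM in i.v. ABCB5+. In CoCM, 4 of 6 animals exceeded every Ctrl animal, and the log2 fold change was 0.25 ± 0.18 (adjusted p = 0.549, edgeR; 0.21 ± 0.16 without animal 39 and the other 3 apart). Ftl1 was 2079, 3364 and 3653 CPM in Ctrl and 2484, 3302 and 4136 CPM in CoCM. In i.p. ABCB5+ it was 2276, 3252 and 4119 CPM, and in i.v. ABCB5+ 2443, 3249 and 6007 CPM. The group medians of Ftl1 differed little, and its 4 highest animals of 24, at 4119 to 6007 CPM, were the 4 apart. In i.v. ABCB5+, the log2 fold changes of 0.18 ± 0.18 for Fth1 and 0.29 ± 0.22 for Ftl1 turned to −0.05 and −0.07 without these animals. With i.p. ABCB5+ the changes were 0.10 for Fth1 and 0.05 for Ftl1, and 0.08 and −0.03 without the animals apart. Ftl1 in CoCM was at 0.13, and at 0.05 without them. The sum of both chains had a median of 13663 TPM in Ctrl, 14837 TPM in CoCM, 13677 TPM with i.p. and 13503 TPM with i.v. ABCB5+.

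Slc40a1 encodes ferroportin, the iron exporter of the cell membrane. Its level in Ctrl was 114 ± 9.42 CPM (mean ± SD, n = 6), with a lowest value of 102, a median of 115 and a highest of 126 CPM. In CoCM it was 99.8 ± 12.3 CPM, from 85.2 over 98.4 to 121 CPM. In i.p. ABCB5+ it was 106 ± 4.89 CPM, from 97.4 over 108 to 109.9 CPM, and in i.v. ABCB5+ 100.1 ± 8.76 CPM, from 83.7 over 105 to 106 CPM. The treated groups lay lower than Ctrl on average but overlapped with it, with 4 of 6 CoCM animals, 1 of 6 i.p. animals and 2 of 6 i.v. animals below every Ctrl animal. The log2 fold change was −0.19 ± 0.08 in CoCM, with 5 of 6 animals below the Ctrl mean (unadjusted p = 0.0237, adjusted p = 0.379, edgeR). It was −0.11 ± 0.08 in i.p. ABCB5+, with 6 of 6 animals below the Ctrl mean (adjusted p = 0.978, edgeR), and −0.19 ± 0.08 in i.v. ABCB5+, also with 6 of 6 (unadjusted p = 0.0262, adjusted p = 0.673, edgeR). Two-sided exact permutation tests gave p = 0.0498, 0.0952 and 0.0325, without adjustment for the 36 such tests made over members and comparisons. These were the only 2 of the 36 under 0.05. No comparison of Slc40a1 with Ctrl therefore passed the adjusted threshold. Without the 4 animals apart the log2 fold change was −0.18 in CoCM, −0.11 with i.p. and −0.12 with i.v. ABCB5+. The 2 i.v. animals below every Ctrl animal, at 83.7 and 96.4 CPM, were 2 of those apart, whereas the lowest CoCM animal was not.

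Cp encodes ceruloplasmin, the copper ferroxidase that loads iron onto transferrin and an acute phase protein. In Ctrl it was 372 CPM at the lowest, 616 CPM at the median and 733 CPM at the highest. In CoCM these values were 27.8, 434 and 595 CPM, in i.p. ABCB5+ 44.6, 436 and 722 CPM, and in i.v. ABCB5+ 67.1, 449 and 631 CPM. The median of each treated group was below that of Ctrl, but 5, 5 and 5 animals of 6 lay below the Ctrl mean and the groups overlapped. The fitted log2 fold change was −0.57 ± 0.59 in CoCM, −0.53 ± 0.59 with i.p. and −0.69 ± 0.59 with i.v. ABCB5+ (adjusted p = 0.644, 0.978 and 0.693, edgeR; two-sided exact permutation p = 0.0931, 0.108 and 0.0844). CoCM animal 39 was at 27.8 CPM, i.p. animal 38 at 44.6 CPM, and i.v. animals 36 and 37 at 67.1 and 87.4 CPM. The lowest of the other 20 animals was at 321 CPM. Without these 4, the log2 fold change was −0.33 ± 0.21 in CoCM, −0.28 ± 0.21 with i.p. and −0.22 ± 0.22 with i.v. ABCB5+ (adjusted p = 0.405 in CoCM, edgeR). These 4 animals also had lower macrophage, injured tubule and fibroblast marker sums and a higher proximal tubule sum, given above. The part of these in the gap of Cp was not tested.

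**Figure D2:**
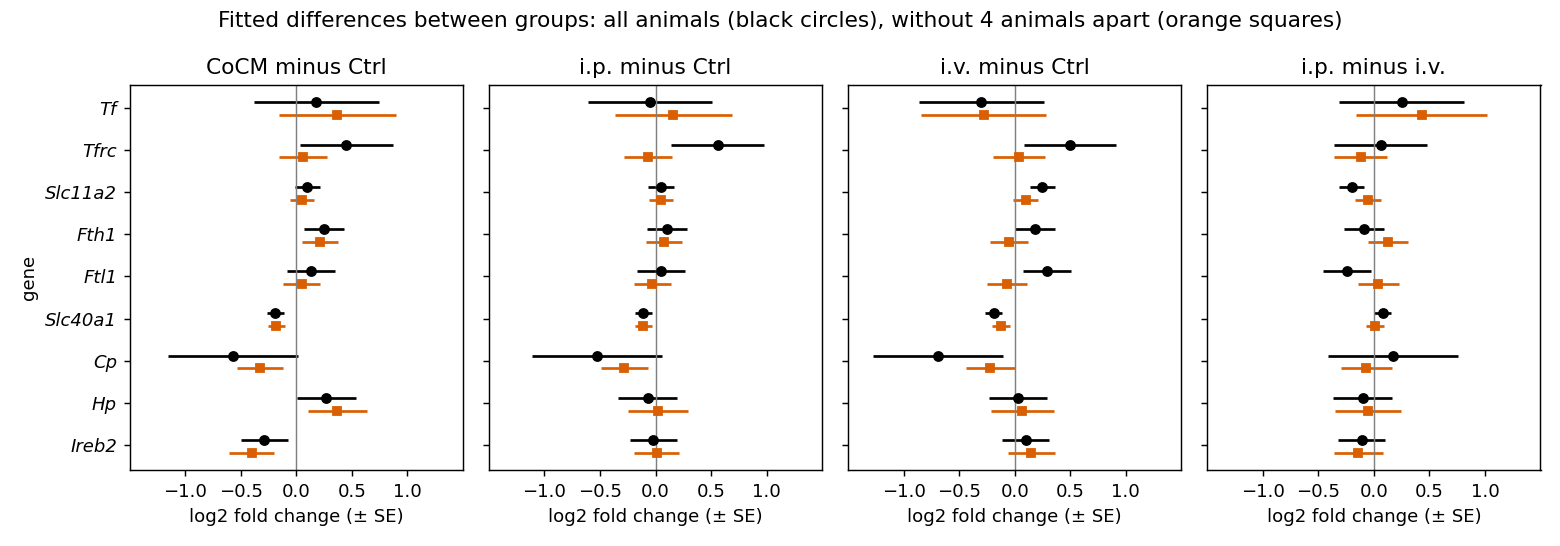
For each comparison, the log2 fold change (x axis, with its SE as a bar) of the 9 genes is shown for all 24 animals (black circles) and without the 4 animals apart (orange squares). The change of Tfrc in i.p. ABCB5+ moves from 0.56 to −0.07 and that of Cp in i.v. ABCB5+ from −0.69 to −0.22, while Slc40a1 in CoCM stays at −0.19 and −0.18.

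Hp encodes haptoglobin, which binds free haemoglobin. It was near the lower limit of what was tested, from 1.21 over 2.52 to 3.02 CPM in Ctrl, 1.59 over 2.84 to 3.42 CPM in CoCM, 1.45 over 1.92 to 3.11 CPM in i.p. ABCB5+ and 1.68 over 2.08 to 3.60 CPM in i.v. ABCB5+. The log2 fold changes were 0.27 ± 0.26, −0.07 ± 0.27 and 0.03 ± 0.27, each close to or within its error, and 0.37, 0.02 and 0.07 without the 4 animals apart. Blood cell markers varied widely beside it, from 523 to 34043 TPM in sum, with the highest value in Ctrl animal 1 and the next at 10762 TPM.

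Ireb2 encodes iron regulatory protein 2, which binds the iron-responsive elements. It ranged from 23.99 to 46.3 CPM in Ctrl with a median of 31.2 CPM, from 19.2 to 35.05 CPM in CoCM with a median of 25.5 CPM, from 23.2 to 43.7 CPM in i.p. ABCB5+ with a median of 30.7 CPM and from 20.3 to 43.3 CPM in i.v. ABCB5+ with a median of 38.7 CPM. CoCM had the lowest median, and 2 of its 6 animals were below every Ctrl animal. The log2 fold change was −0.29 ± 0.21 in CoCM (adjusted p = 0.544, edgeR), −0.02 ± 0.21 with i.p. and 0.10 ± 0.21 with i.v. ABCB5+. Without the 4 animals apart it was −0.40, 0.01 and 0.15.

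Members were also compared with each other, over the 20 animals that did not stand apart and on log2 CPM. Of 36 pairs, 4 passed an adjusted p-value of 0.05 (permutation test with 100000 resamples, adjusted over the 36 pairs). Fth1 and Ftl1, the chains of 1 protein shell, rose together, with Pearson r = 0.83 and Spearman rho = 0.72 (p = 1e-05, the smallest that the resamples can give, and p = 0.00052; adjusted 0.00036 and 0.00624). Tf and Fth1 did so with r = 0.82 and rho = 0.82 (p = 3e-05 and 2e-05; adjusted 0.00054 and 0.00072). For Tf and Ftl1, r was 0.62 and rho 0.57 (p = 0.0044 and 0.00935; adjusted 0.0396 and 0.0673), so this pair passed by r alone. Tfrc and Cp ran in opposite directions, with r = −0.78 and rho = −0.80 (p = 9e-05 and 5e-05; adjusted 0.00108 and 0.0009). By rho, a further pair, Slc11a2 and Ireb2, passed (rho = 0.66, adjusted 0.0207; r = 0.54, p = 0.0125, adjusted 0.0899).

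Leaving out the 2 animals farthest from the median of the first gene, r was 0.74 for Fth1 and Ftl1, 0.76 for Tf and Fth1, 0.53 for Tf and Ftl1 and −0.74 for Tfrc and Cp. With the group means removed, r was 0.84, 0.83, 0.62 and −0.85. Within the 6 Ctrl animals alone it was 0.97, 0.88, 0.88 and −0.85. Within the 20 animals, r with the first principal component was 0.67 for Tf, 0.58 for Fth1, 0.52 for Tfrc and −0.64 for Cp. It was weakest for Ftl1, at 0.39. No p-value was computed for these r, and the part of that shared axis in the pairs was not tested. The Tfrc and Cp levels of the 4 animals apart, which were left out of r, lay beyond the others on both genes.

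**Figure D3:**
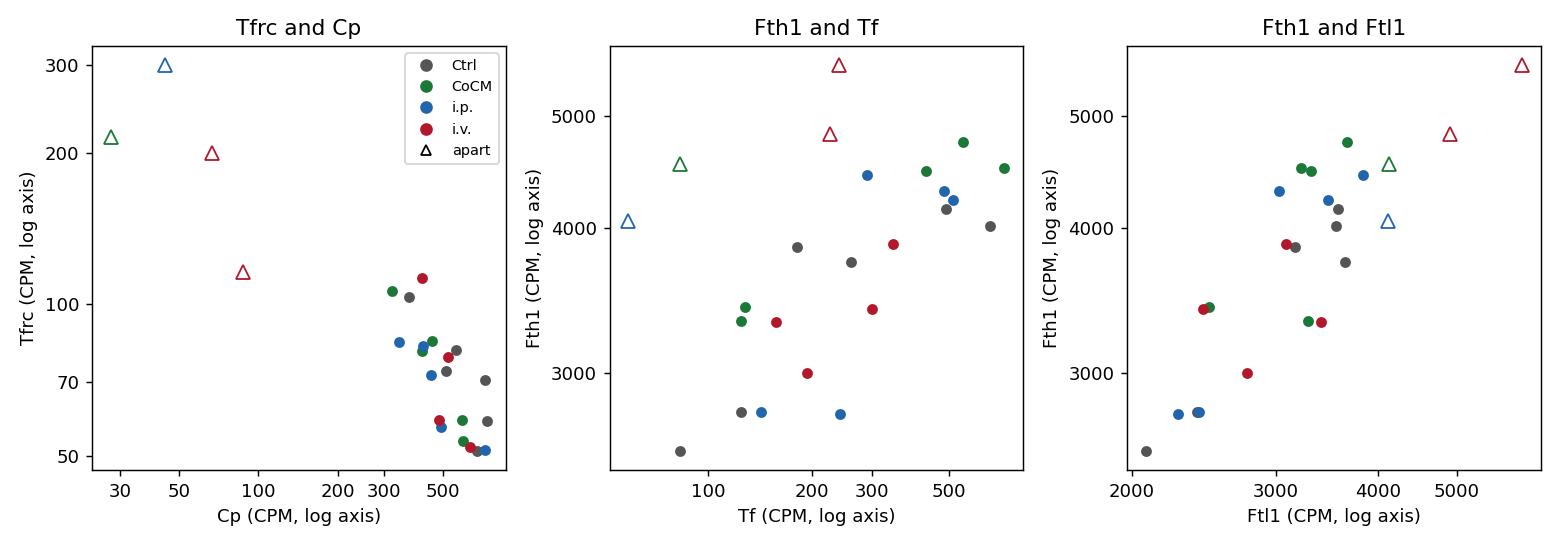
Each point is an animal, plotted by CPM of 1 gene against another on log axes, in the colour of its group, with open triangles for the 4 animals apart. Over the 20 filled points, Tfrc falls as Cp rises (r = −0.78) and Fth1 rises with Tf (r = 0.82) and with Ftl1 (r = 0.83); the triangles sit at 27.8 to 87.4 CPM of Cp.

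The sequences upstream of Tfrc and Cp, which ran in opposite directions, and of Tf, which varied most among the Ctrl animals, are shown here because their letters differ in kind. RefSeq entries were matched for 6 of the 9 members in assembly GRCr8. Shown are the 250 bases before the annotated start, on the strand of the gene, at chr11:81690319-81690568 (minus strand) for Tfrc, chr8:112695377-112695626 (minus strand) for Tf and chr2:104368420-104368669 (plus strand) for Cp. Capitals mark matches, on either strand, to the hypoxia response cores ACGTG and GCGTG, to TTGCNNAA, a form of the site of C/EBP factors, which take part in the acute phase response, and to TATAAA, the TATA box.
Tfrc: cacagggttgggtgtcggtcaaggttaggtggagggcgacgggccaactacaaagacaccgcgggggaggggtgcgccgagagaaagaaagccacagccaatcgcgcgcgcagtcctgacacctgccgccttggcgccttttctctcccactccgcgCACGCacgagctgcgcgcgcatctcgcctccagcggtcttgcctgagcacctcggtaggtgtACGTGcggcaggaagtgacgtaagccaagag
Tf: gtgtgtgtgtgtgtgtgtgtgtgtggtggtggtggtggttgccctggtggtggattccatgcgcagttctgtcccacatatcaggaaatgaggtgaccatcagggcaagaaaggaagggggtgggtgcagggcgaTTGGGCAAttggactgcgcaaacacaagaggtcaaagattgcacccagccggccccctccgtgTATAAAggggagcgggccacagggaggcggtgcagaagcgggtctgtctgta
Cp: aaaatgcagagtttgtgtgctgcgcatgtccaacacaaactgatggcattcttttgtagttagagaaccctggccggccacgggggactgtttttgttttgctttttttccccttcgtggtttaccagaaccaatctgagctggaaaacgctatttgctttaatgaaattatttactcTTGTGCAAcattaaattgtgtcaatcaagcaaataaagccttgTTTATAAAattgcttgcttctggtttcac

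The Tf and Cp windows each held the C/EBP letters and a TATA box, at −115 to −108 and −52 to −47 of Tf and at −72 to −65 and −27 to −22 of Cp, counted back from the annotated start. In Cp the TATA letters were also met on the other strand at −29 to −24, overlapping the first match. Tfrc held neither and had ACGTG at −31 to −27 and GCGTG, read on the other strand, at −93 to −89. Of 33469 upstream windows of the same length, 9.22% held TTGCNNAA, 12.9% TATAAA, 16.6% ACGTG and 25.9% GCGTG. Slc11a2 had GCGTG on the other strand at −165 to −161 in 1 of its 2 windows, and no letters of these motifs were met in the windows of Slc40a1 and Ireb2. The forms searched for STAT factors (TTCNNNGAA), the antioxidant response (TGACNNNGC) and GATA factors (AGATAA), held by 7.67%, 10.1% and 10.3% of windows, were met in none of the members' windows. Such matches describe the letters and are not evidence of binding.

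The genes most alike to each member in level over the same 20 animals were listed as a description. Cp was alike to Scara3 and to Pdgfra, a receptor and fibroblast marker (both r = 0.91). Tf was most alike to Slc5a10, a sodium-coupled sugar transporter, and to Apoh, a plasma apolipoprotein (both r = 0.95), and to Irx5, a homeobox factor (r = 0.94). Fth1 was most alike to Arpc5l and Gpx4, the peroxidase that reduces membrane lipid peroxides (both r = 0.95), and to Bri3 (r = 0.94). Ftl1 was most alike to Akr1a1, an aldehyde reductase (r = 0.93), Prelid1 and Bscl2 (both r = 0.92). Ireb2 had the closest neighbours of the set, with Prkaa2, a catalytic subunit of AMP-activated kinase (r = 0.99), Aak1 and Mob1b (both r = 0.98). Tfrc followed Cpm, Ppat and Prss53 (r = 0.89, 0.88 and 0.83) and Slc11a2 followed Ints13 and Neurl4 (r = 0.87 and 0.86). The neighbours of Hp (Gpsm1, Phkg1 and Pkmyt1, r = 0.83, 0.80 and 0.79) and of Slc40a1 (Tef, Rhbdd1 and Tor1aip2, r = 0.75, 0.74 and 0.73) were the least close.

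A further 47 genes of iron and haem handling were set beside the members, of which 44 were tested and none passed the adjusted threshold in any comparison. Their median log2 fold change was 0.08 in CoCM, 0.06 with i.p. and 0.12 with i.v. ABCB5+, and it was −0.02, −0.02 and −0.04 without the 4 animals apart. Slc22a17, a receptor for siderophore-bound iron, was 0.28 ± 0.08 in CoCM (adjusted p = 0.224, edgeR), and Slc25a28, a mitochondrial iron importer, was 0.24 ± 0.08 there (adjusted p = 0.319, edgeR). They were 0.27 and 0.24 without the 4 animals. Blvra, which reduces biliverdin, was 1.10 ± 0.41 in i.v. ABCB5+ (adjusted p = 0.673, edgeR), with 163 and 203 CPM in the i.v. animals apart and at most 72.6 CPM in the other 20. Its change was 0.02 ± 0.25 without the 4 animals. Alas2, the haem synthesis enzyme of red cell precursors and also a blood cell marker here, was −2.14 ± 0.87 in i.v. ABCB5+ (adjusted p = 0.673, edgeR). It reached 85.0 CPM in Ctrl against medians of 6.12 CPM in Ctrl and 3.77 CPM in i.v. ABCB5+. Its change without the 4 animals, all of them treated, was −2.24 ± 1.08. The value without the highest Ctrl animal is not reported here. Of the other blood cell markers, Hba-a1, Hba-a2 and Hbb were at −1.99, −2.23 and −2.17 in i.v. ABCB5+, and Slc4a1 at 0.38. The part of blood cells in the change of Alas2 was not tested. The transcript of hepcidin, Hamp, the hormone that closes ferroportin, was at 0 to 0.288 CPM and was not tested.

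Of 24 further acute phase genes, 20 were tested and 0 passed the adjusted threshold. Their median log2 fold change was −0.24 in CoCM, −0.21 with i.p. and −0.23 with i.v. ABCB5+, with 16, 17 and 15 of 20 below 0, beside medians near 0.01 over all genes. This lower median was not seen without the 4 animals apart, where it was −0.09, 0.00 and 0.02, with 11, 10 and 8 of 20 below 0. With all animals, macrophage markers moved beside the acute phase genes, with medians of −0.40, −0.48 and −0.53 and 9 of 9 below 0 in each comparison. Fibroblast markers did so too, with 6 of 6 below 0 and medians of −0.58, −0.46 and −0.57. With the 4 animals left out the medians were −0.18, −0.28 and −0.11 for macrophage and −0.37, −0.27 and −0.19 for fibroblast markers. Their part in the acute phase values was not tested. Il1r1, an interleukin 1 receptor, was −0.97 ± 0.27 in CoCM (adjusted p = 0.226, edgeR) and Apcs, serum amyloid P, was −0.97 ± 0.39 there (adjusted p = 0.374, edgeR). Cebpb, a factor that drives acute phase genes, was 0.68 ± 0.19 in i.v. ABCB5+ (adjusted p = 0.673, edgeR) and was at −0.71 ± 0.19 in i.p. against i.v. ABCB5+ (adjusted p = 0.9999, edgeR). Serpina1, which encodes alpha-1 antitrypsin, was −0.77 ± 0.44 in i.v. ABCB5+ (adjusted p = 0.673, edgeR). Its counts were low, with 0.799 to 1.96 CPM in Ctrl and 0.186 to 1.09 CPM in i.v. ABCB5+. Without the 4 animals, Il1r1 and Apcs in CoCM were −0.93 and −0.89, Cebpb was 0.79 with i.v. ABCB5+ (−0.73 for i.p. minus i.v.), and the i.v. value of Serpina1 was −0.55.

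Across all genes, 14.2% were below the range of the other 20 animals in each of the 4 animals apart, and 10% were above it. Since the component that set these animals apart used the same genes, no test was made. Of the 9 members, Cp was below in each of the 4, and Tfrc and Ftl1 were above. Of the 20 acute phase genes, 11 were below and 0 above. C3, the central complement component, was one of them, named after its values were seen, with 4.66 to 20.4 CPM in the 4 animals against 52.1 to 206 CPM. Of the 44 iron and haem genes, 9 were below and 11 above. The 9 below held Hmox1, which breaks haem down, and the haemoglobin receptor Cd163, a macrophage marker. The 11 above held 7 of the 9 haem synthesis genes, with Alad, Alas1 and Fech among them, and these names too were taken after the values were seen. Alad was at 98.8 to 141 CPM in the 4 animals and at 42.3 to 66.2 CPM in the other 20. Hmox1 was at 5.45 to 10.1 CPM against 12.2 to 28.8 CPM. These genes moved beside the macrophage, injured tubule, fibroblast and proximal tubule marker sums given above, whose part in them was not tested.

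**Figure D4:**
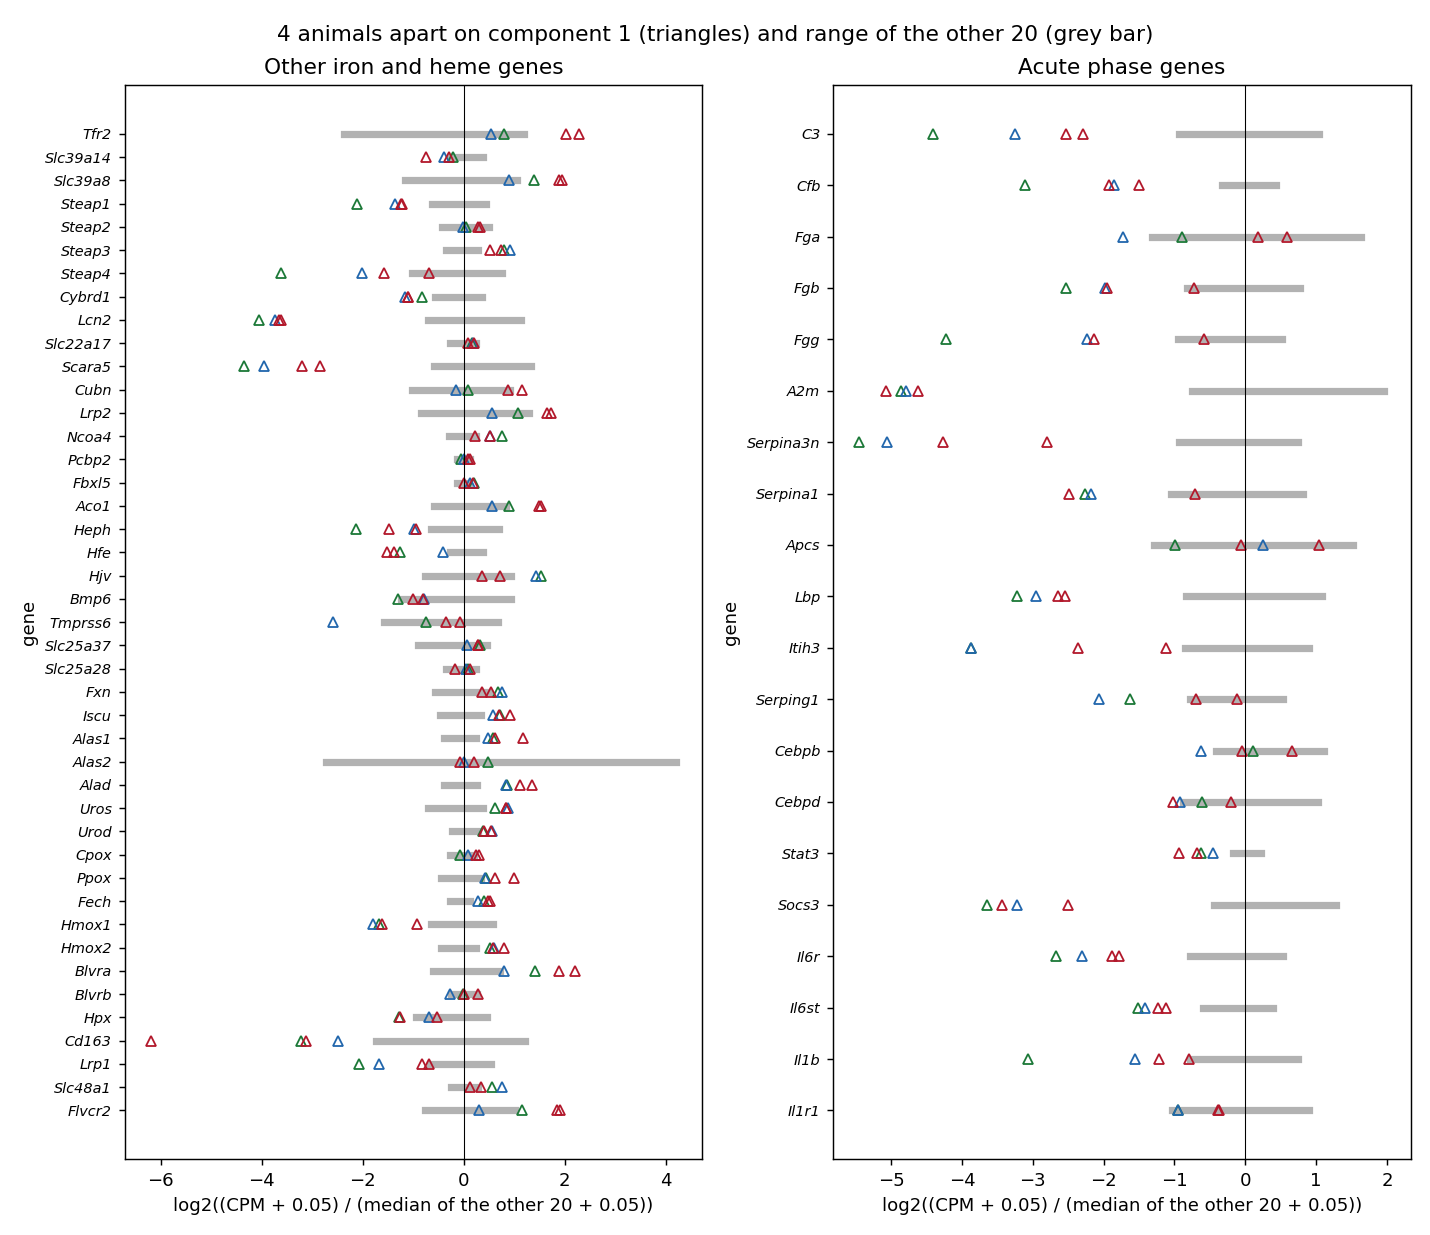
For further iron and haem genes (left, some not shown) and acute phase genes (right), grey bars give the range of the 20 other animals and triangles the 4 animals apart, as log2 ratio of CPM + 0.05 to the median of the 20. In the left panel 9 genes have the 4 triangles below the bar; in the right panel 11 are below and 0 above.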

How the data were processed

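Total RNA of the left kidney was sequenced in 24 animals. For each animal the authors deposited estimated counts and TPM (transcripts scaled for length and library total) for 17334 Entrez identifiers. The submitters' processing notes name Trim Galore 0.6.4, kallisto 0.4.6 and the build rn6, while the paper lists human gene models and DESeq2. These estimated counts, as the authors deposited them, carried no normalisation. The TPM deposited by the authors summed to between 964191 and 976409 per sample.

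Groups were taken from the sample labels. Estimated counts were rounded, genes were filtered with filterByExpr by group, and libraries were scaled by TMM. A mean per group was fitted to all 24 animals in edgeR 4.0.16 (R 4.3.3), and contrasts were tested by the quasi-likelihood F-test with Benjamini-Hochberg adjustment over 12778 genes at 0.05. A value after ± with a log2 fold change is its SE. CPM were computed after TMM scaling, and log2 CPM with a prior count of 2. The tests used edgeR and not the DESeq2 of the study, which was an alternative (DESeq2 1.42.0), beside limma 3.58.1. Single members were compared by exact permutation, whose smallest p-value is 0.00216. Labels name separate animals, so p-values measure the spread between animals. Gene symbols and upstream sequences came from RefSeq tables of GRCr8, in which 17179 identifiers had a symbol.

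The members, gene lists and tests were chosen with earlier results of these data known. The fits of the further lists without the 4 animals apart were added after seeing the data. Members were named in each case. Of each further list, genes past the adjusted threshold were to be named, and otherwise the 4 with the smallest p over the 4 groups, together with the 3 genes most alike to each member. Some genes that this rule or the lists hold are not reported here. On simulated counts for CoCM against Ctrl over 12721 genes, with 200 changed 4-fold, the test called 91.5% of the changed genes. Of its calls, 7.11% were unchanged genes, and it called 0 genes when none was changed. The simulation drew each gene independently, with no component shared by genes and no animals apart. Its rates therefore need not hold for the measured counts.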

Additional observations from a re-analysis of the deposited data

Results flagged for a closer look

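Of 36 pairs of a member and a group, 2 held an animal far from the others, judged by its distance to the nearest of them relative to the whole range (Dixon's criterion), where 1.8 are expected by chance. Both were Tfrc. CoCM animal 39 was at 215 CPM, against 53.5 to 107 CPM in the other CoCM animals, and i.p. ABCB5+ animal 38 was at 299 CPM, against 51.4 to 84.0 CPM. The gaps were 0.672 and 0.868 of the range, above the critical value of 0.625. Each animal is 1 of the 4 apart on the first principal component.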

How the results depend on the processing

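The count of members called was 0 under every alternative run: median-ratio scaling, DESeq2, no filter, a minimum of 10 counts, only the groups compared, limma on log2(TPM + 1), limma voom with quality weights, without the 4 animals apart, and without each animal in turn. The smallest adjusted p of any member over these was 0.131 (Slc40a1 in CoCM, limma voom). No paired analysis was possible because no animal number occurs in more than 1 group. For all genes in CoCM against Ctrl, 1 gene was called, 0 without the 4 animals apart, with only the groups compared or with limma on TPM, 183 with limma voom and 81 with DESeq2; without 1 animal it was 0 to 31, the 31 without Ctrl animal 23. DESeq2 called 1 gene in i.v. ABCB5+ against Ctrl, 1 between the routes and 10 over the 4 groups, and limma voom 1 over the 4 groups; without 1 animal the last count was 0 to 1. On log2(TPM + 1), 7 pairs of members were correlated in place of 4. On that scale r was 0.67 for Fth1 and Ftl1 and 0.89 for Tf and Fth1. It was 0.56 for Tf and Ftl1 and −0.59 for Tfrc and Cp. For Ireb2, r was 0.75 with Slc11a2 and 0.74 with Slc40a1. The causes of these differences were not tested.

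Fold changes of members that were not called turned in sign in 27 of 288 fits other than those without 1 animal, on the log2 scale. Without the 4 animals apart, values in i.p. ABCB5+ were −0.07 for Tfrc, 0.16 for Tf, −0.03 for Ftl1, 0.02 for Hp and 0.01 for Ireb2. In i.v. ABCB5+ they were −0.05 for Fth1 and −0.07 for Ftl1, and between the routes −0.12 for Tfrc, 0.13 for Fth1, 0.04 for Ftl1 and −0.07 for Cp. With limma voom they were 0.55 for Tf, 0.26 for Hp and 0.03 for Ireb2 in i.p. ABCB5+, −0.08 for Fth1 and −0.12 for Ftl1 in i.v. ABCB5+, and 0.24 for Fth1, 0.14 for Ftl1, −0.01 for Slc40a1, −0.08 for Cp and 0.01 for Hp between the routes. With limma on TPM they were −0.02 for Tf in CoCM, −0.01 for Ftl1 in i.p. ABCB5+, −0.02 for Hp and −0.00 for Ireb2 in i.v. ABCB5+, and −0.06 for Tfrc and −0.01 for Tf between the routes.

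Without 1 animal, 35 of 864 values turned. The ranges were −0.19 to 0.57 for Tf in CoCM, and in i.p. ABCB5+ −0.07 to 0.66 for Tfrc, −0.30 to 0.34 for Tf, −0.03 to 0.11 for Slc11a2, −0.05 to 0.12 for Ftl1, −0.21 to 0.03 for Hp and −0.14 to 0.10 for Ireb2. In i.v. ABCB5+ they were −0.51 to 0.09 for Tf and −0.16 to 0.12 for Hp, and between the routes −0.55 to 0.35 for Tfrc, −0.15 to 0.03 for Fth1, −0.07 to 0.40 for Cp and −0.24 to 0.08 for Hp. Slc40a1 kept its sign against Ctrl in each fit, from −0.30 to −0.08. The common biological coefficient of variation was 0.299, and recovery of changes as small as those of the members was not tested.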
